A study of Mus musculus with 6 samples.

Results

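The mitochondrial ribosomal protein genes are the nuclear genes whose names start with Mrpl or Mrps and a number, and 77 of the 34718 genes in the deposited table bear such a name. Of these, 29 are named Mrps, for the small subunit, and 48 are named Mrpl, for the large subunit. Mrps36-ps3, a pseudogene, was left out by its name and had 0 counts in all 6 libraries. The members were chosen by name alone and not by their values. All 77 are annotated as protein coding, they lie on 17 chromosomes, and chromosome 11 holds the most, with 10.

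The mitochondrial ribosome, or mitoribosome, translates the few messenger RNAs that the mitochondrial genome encodes, all of them for subunits of the respiratory chain and the ATP synthase. Its ribosomal RNAs come from the mitochondrial genome, while its proteins are encoded in the nucleus, made in the cytosol and imported. Some of these proteins have counterparts in the bacterial ribosome, and others were added during the evolution of mitochondria. Hepatocytes are rich in mitochondria, and hepatoma cells keep a variable part of that equipment.

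RNA was sequenced from Hepa1-6, a mouse hepatoma line grown in culture, in 3 control samples titled shNC and 3 samples titled shZfp207, in which Zfp207 was knocked down by short hairpin. No other treatment, allele or time point separates the groups in the labels. The labels give neither the number of hairpins and clones nor the origin of the replicates, so an effect of the hairpin and loss of Zfp207 cannot be told apart. Fewer cells and less RNA per cell cannot be told apart in such bulk samples.

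The libraries held 11933736 to 16248346 counts, and members had 38 to 2206 counts per library. Zfp207, the targeted gene, had 141, 198 and 217 CPM (counts scaled to the library total) in the controls and 48, 48.1 and 46.8 CPM in the knockdown libraries, always listed by replicate from 1 to 3, so every knockdown library lay below every control library (log2 fold change -1.95 with an SE of 0.17, edgeR adjusted p = 0.00236). Control replicate 1 stood apart from the other controls, with 10.5% of its counts from mitochondrially encoded genes against 2.89% and 2.67% in control replicates 2 and 3 and 5.6% to 6% in the knockdown libraries, and where a call on a named gene changed without it, both values are given. Of the markers of hepatocytes, the hepatoma genes Alb, Afp, Krt8, Krt18 and Hnf4a were abundant, while Ttr had 0 to 5 counts and Serpina1a 0 to 3 counts per library. The 3 T cell markers had 0 counts. The 5 leukocyte markers summed to 14.9 to 19.3 CPM in control and 14.6 to 16.8 CPM in knockdown libraries, mostly from Cd68. Within that list Csf1r had 2, 6 and 14 counts in control and 52, 48 and 45 in knockdown libraries and was higher (log2 fold change 2.68, edgeR adjusted p = 0.0117), and Ptprc had 1, 1 and 0 against 8, 5 and 5 counts. Dcn made up nearly all of the fibroblast list, which summed to 2020 to 2281 CPM in control and 2683 to 2765 CPM in knockdown libraries, with Col1a1 at or below 0.73 CPM. Dcn did not pass with all libraries (log2 fold change 0.33, edgeR adjusted p = 0.0968) but was higher without control replicate 1 (0.27, edgeR adjusted p = 0.000735). The hepatocyte list summed to 5505 to 6738 CPM in control and 7117 to 7264 CPM in knockdown libraries, with changes in both directions: of 7 tested genes, 3 were higher (Alb 1.29, Afp 1.12 and Apoa1 0.85 on the log2 scale) and 3 lower (Krt8 -0.67, Krt18 -0.64 and Apoa2 -2.23). Of these, Apoa1 and Apoa2 were scarce. Apoa1 had 22, 27 and 23 counts in control and 53, 44 and 40 in knockdown libraries. Apoa2 had 19, 15 and 16 against 5, 2 and 4 counts. In control and knockdown libraries, the endothelial list summed to 0.617 to 1.68 and 1.46 to 2.05 CPM, and the cholangiocyte list to 41.6 to 50.8 and 16.9 to 18.3 CPM. The part of these markers in the results was not tested.

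The summed level of the mitoribosomal genes in knockdown cells lay within the range of the controls, 3 genes rose and 3 fell. Together they took 4080, 3099 and 3203 CPM in the controls and 3435, 3300 and 3301 CPM in the knockdown libraries, that is 3461 ± 539 against 3345 ± 77.7 CPM (SD, n = 3 each). The upper end of the controls was control replicate 1. The share of member counts that came from the genes named Mrps was 32.7% to 32.9% in control and 32.7% to 33.1% in knockdown libraries, so the balance of the subunit names did not move beyond that narrow range. Of the 77 genes tested, 3 were higher and 3 lower at an edgeR adjusted p below 0.05, which is 7.79%, against 20.6% of the 11975 genes tested in all, 9.92% being called higher and 10.7% lower. The median log2 fold change was -0.03 over the members, the same as over all genes tested (-0.03). The lower and upper quartiles of the members were -0.21 and 0.10, against -0.34 and 0.27 for all genes. The comparison has no test of the list itself, and the low count of calls is a description.

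These calls depended on the libraries in the fit. Without control replicate 1, 19 members were higher and 10 lower, 37.7% of the 77, against 52.1% of the 12108 genes then tested (26.1% higher and 26.1% lower), and the 6 first calls were all among them with the same sign. Without control replicate 2 or 3, 0 were higher and 2 lower, the lower ones being Mrps12 and Mrps18a, against 12.5% and 10.4% of all genes called. Without knockdown replicate 1 or 3, 0 were higher and 1, Mrps12, was lower, and without knockdown replicate 2 edgeR made no call, against 5.93%, 4.37% and 4.91% of all genes in these fits. With all libraries, 16 of the 77 members had an unadjusted p under 0.05, against 4296 of the 11975 genes. DESeq2 called 4 members higher and 8 lower, or 15.6%, against 27.1% of all genes. All 3 libraries of a group lay beyond all 3 of the other at 23 members, 7 of them higher and 16 lower in knockdown cells, or 29.9%, against 44.7% of all genes tested (22.3% higher and 22.4% lower).

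The size of a change that these data allow can be read from the 95% intervals of the fitted changes. At 41 members the whole interval lay within 1.5-fold in either direction, and at 68 it lay within 2-fold. The median distance from the estimate to the end of its interval was 0.36 on the log2 scale. Estimates of at least 1.5-fold, called or not, were found at 5 members (6.49%), against 23.8% of all genes tested. The widest interval was that of Mrps21, from -1.70 to 0.67, a gene with 98.9 CPM in control replicate 1 and 28.6 CPM in each of the other controls. For such members the data do not show that the level was kept.

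**Figure D1:**
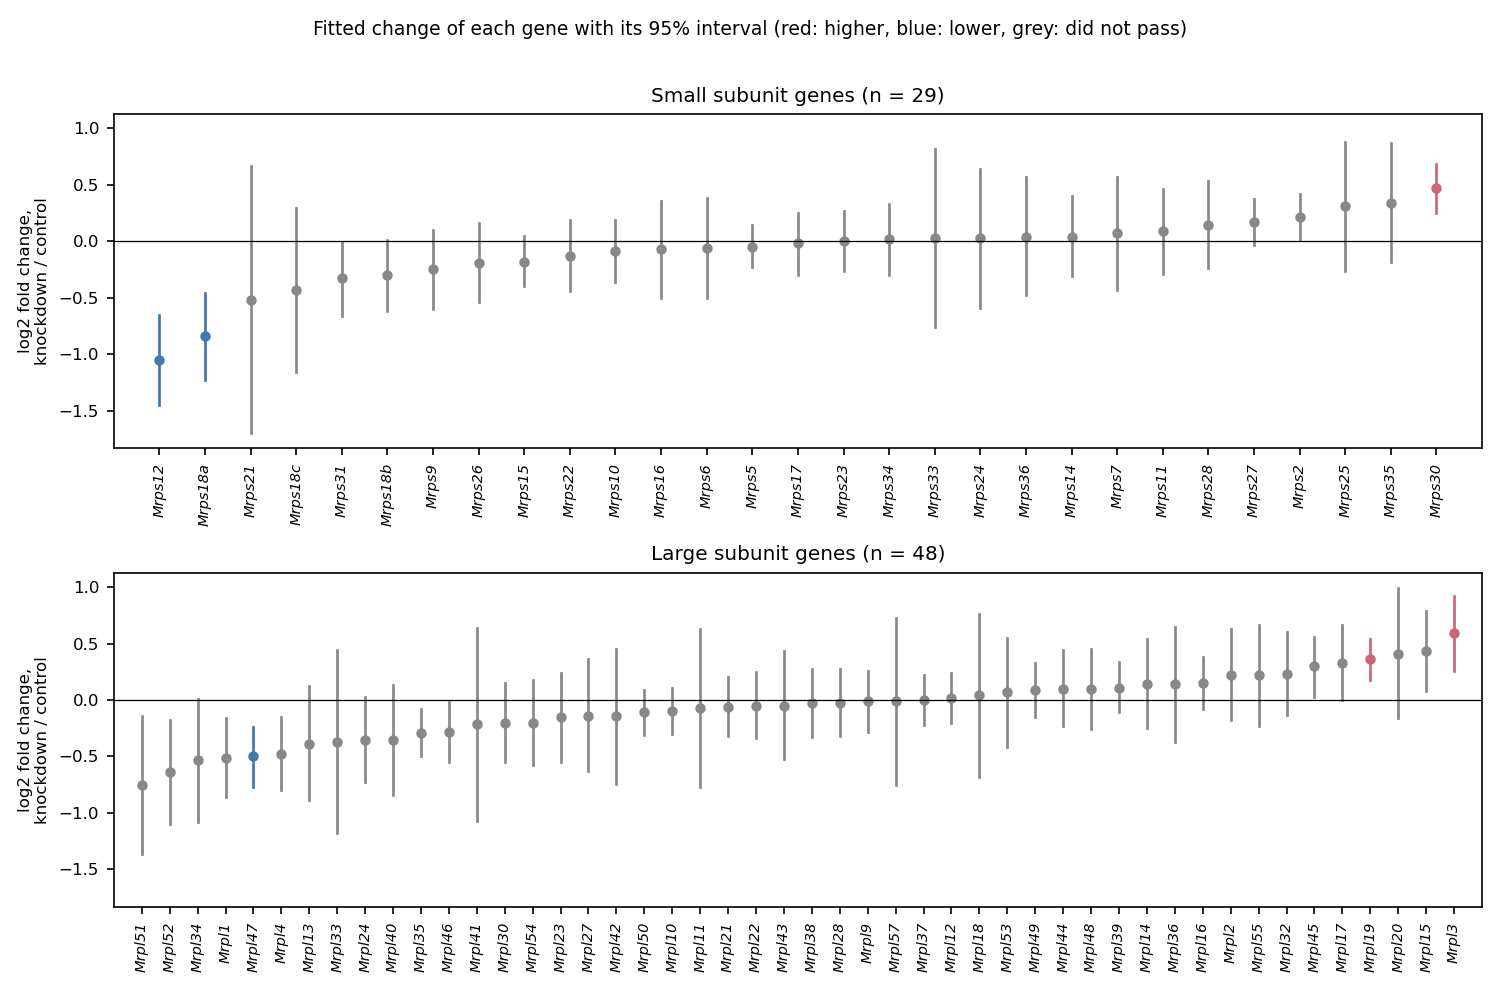
Log2 fold change (vertical axis, knockdown over control) of each of the 77 genes with its 95% interval, ordered by value within the 29 small and 48 large subunit names. The points of Mrps12 and Mrps18a lie farthest below 0, at -1.05 and -0.84, and that of Mrpl3 lies highest, at 0.59, while most intervals cross 0.

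Mrps12 had the strongest fall of the family. It encodes the counterpart of the bacterial protein at the decoding centre of the small subunit, where codon and anticodon are matched. It had 13.7, 11.4 and 13 CPM in the controls and 6.96, 6.24 and 4.99 CPM in the knockdown libraries. The groups did not overlap, and the knockdown level was 0.481 of the control level (12.7 ± 1.05 against 6.09 ± 0.972 TMM-scaled CPM, SD, n = 3 each). This corresponds to -1.05 on the log2 scale, with an SE of 0.168 (edgeR adjusted p = 0.00915). The gene (ENSMUSG00000045948) spans 28739641 to 28741820 on chromosome 7 (mm10, minus strand) and shares no exonic sequence with another annotated gene. Its call was lost without knockdown replicate 2 (edgeR adjusted p = 0.0526) and kept with each other library left out, and without control replicate 1 the value was -1.01.

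Mrps18a was the other clear fall. Despite its name its protein sits in the large subunit of the mammalian mitoribosome. It had 62.7, 42.9 and 44.1 CPM in the controls and 27.4, 28.1 and 27 CPM in the knockdown libraries. The knockdown libraries agreed closely, and control replicate 1 stood above the other controls (49.6 ± 10.7 against 27.6 ± 0.557 TMM-scaled CPM). This corresponds to -0.84 on the log2 scale, with an SE of 0.16 (edgeR adjusted p = 0.0151). The gene (ENSMUSG00000023967, chromosome 17, 46110986 to 46128910, plus strand) shares no exonic sequence with another gene. Without control replicate 1 its value was -0.65 (edgeR adjusted p = 0.00034), and without any 1 knockdown replicate it did not pass (highest edgeR adjusted p = 0.0752).

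Mrpl47, whose protein is the counterpart of a bacterial protein at the rim of the tunnel through which new chains leave the ribosome, fell less. Its levels were 36.5, 31.5 and 30.9 CPM in control and 21.9, 24.3 and 22.8 CPM in the knockdown libraries, with no overlap (log2 fold change -0.50 with an SE of 0.112, edgeR adjusted p = 0.0246). The call was kept without control replicate 1 (-0.43) and lost without any other library, with edgeR adjusted p of up to 0.108. On chromosome 3 (32725397 to 32737605, minus strand), 24.2% of its exonic sequence overlaps Actl6a and Ndufb5 on the opposite strand, whose own log2 fold changes were -0.14 and -0.12 with edgeR adjusted p of 0.384 and 0.711.

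Mrps30 rose. Its protein, also known as a cell death factor from early work in birds, is likewise part of the large subunit in mammals. It had 65, 55.7 and 61.4 CPM in the controls and 85.1, 82.1 and 82.5 CPM in the knockdown libraries. All knockdown libraries lay above all controls (60.5 ± 4.24 against 83.6 ± 1.18 TMM-scaled CPM). This corresponds to 0.47 on the log2 scale, with an SE of 0.0903 (edgeR adjusted p = 0.0157). The gene (ENSMUSG00000021731) lies on chromosome 13 from 118380110 to 118387252, minus strand, and 9.3% of its exonic sequence overlaps B430218F22Rik on the other strand, which had 0 or 1 count per library. Without control replicate 1 the value was 0.51, and without any other single library the edgeR adjusted p was 0.0515 to 0.081.

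Mrpl3 and Mrpl19 were the other rises. Mrpl3 encodes the counterpart of a bacterial protein that reaches towards the peptidyl transferase centre, where peptide bonds form, and it had the highest fitted rise. It had 55.3, 40.7 and 45.6 CPM in control and 65.2, 77.9 and 67.5 CPM in the knockdown libraries (log2 fold change 0.59 with an SE of 0.139, edgeR adjusted p = 0.0297). The groups did not overlap, and control replicate 1 was again the highest of the controls. The gene lies on chromosome 9 from 105053239 to 105079888, plus strand. Gm38077, a gene model on the same strand, covers 3.7% of the exonic sequence of Mrpl3. This model had 7, 2 and 2 counts in control and 15, 33 and 23 counts in knockdown replicates 1 to 3. Gm38077 was higher (log2 fold change 2.56, edgeR adjusted p = 0.0334), and its part in the value of Mrpl3 was not tested. Mrpl19, whose bacterial counterpart lies at the interface of the subunits, had 79.6, 77.2 and 78.9 CPM in control and 100, 99.2 and 101 CPM in the knockdown libraries. It had the smallest SE of the called genes, with a ratio of 1.29 (log2 fold change 0.36 with an SE of 0.0765, edgeR adjusted p = 0.0209). The gene lies on chromosome 6 from 81957851 to 81965958, minus strand, and 36% of its exonic sequence overlaps Gcfc2 on the opposite strand, whose log2 fold change was 0.17 (edgeR adjusted p = 0.5). Both genes kept their calls without control replicate 1 (0.71 and 0.37) and lost them without any other library, with edgeR adjusted p of up to 0.119 and 0.112, and under upper-quartile scaling Mrpl3 did not pass (edgeR adjusted p = 0.0536).

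**Figure D2:**
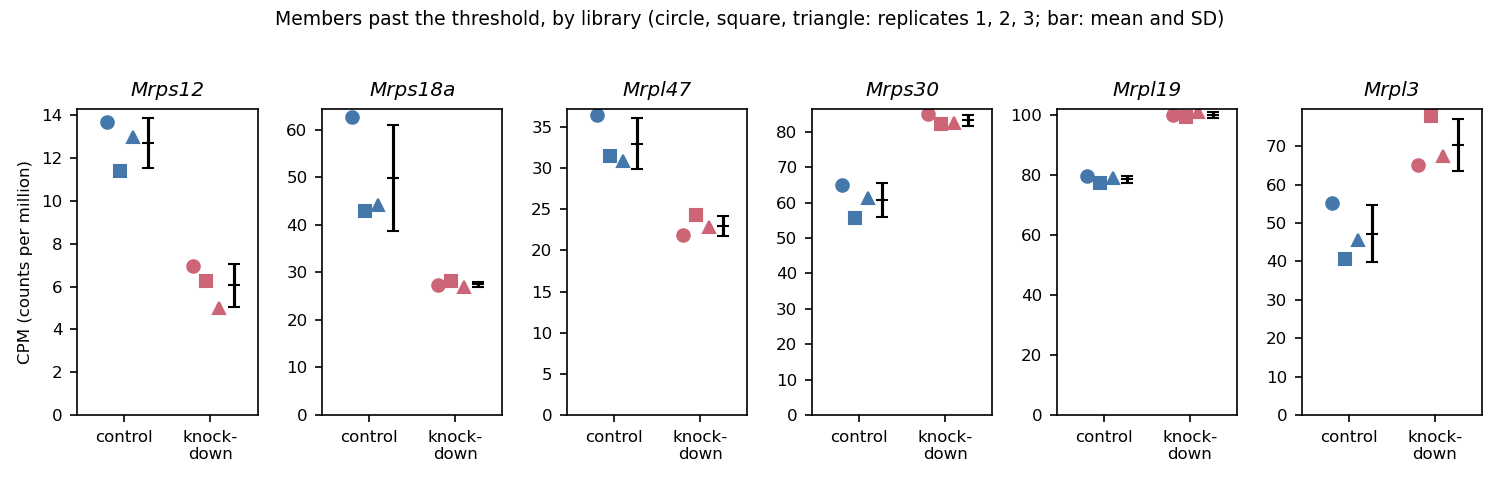
CPM (vertical axis, from 0) of the 6 called genes in each library, with circles, squares and triangles for replicates 1, 2 and 3 and a bar for the mean and SD of 3 libraries. Mrps12, Mrps18a and Mrpl47 are lower and Mrps30, Mrpl19 and Mrpl3 higher in all 3 knockdown libraries than in any control library, and Mrps18a in control replicate 1, at 62.7 CPM, stands above the other controls.

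The promoters of these genes are shown because mitoribosomal genes are known to share sites for a few nuclear factors, and the called genes moved in opposite directions. Sequences are from RefSeq, build GRCm38.p6, and span 250 bases before to 50 bases after the start. Of the 77 members 68 had an entry matched by symbol, and Mrpl19 had none. Capitals mark exact matches, on either strand, to 3 motifs: CCGGAAG, the core bound by ETS factors such as the nuclear respiratory factor GABP, GCGCA, any base and GCGC in a row, the palindrome of NRF1, and AANATGGC, the core of YY1. A CCAAT box and the GC box GGGCGG were searched as well and are not in capitals. The motifs were picked after the sequences had been seen. The genes that fell are given first, with Mrps12 at chr7:28741772-28742071 on the minus strand, Mrps18a at chr17:46110754-46111053 on the plus strand and Mrpl47 at chr3:32736706-32737005 on the minus strand, the RefSeq start of Mrpl47 lying 850 bases from the deposited 5′ end.
Mrps12: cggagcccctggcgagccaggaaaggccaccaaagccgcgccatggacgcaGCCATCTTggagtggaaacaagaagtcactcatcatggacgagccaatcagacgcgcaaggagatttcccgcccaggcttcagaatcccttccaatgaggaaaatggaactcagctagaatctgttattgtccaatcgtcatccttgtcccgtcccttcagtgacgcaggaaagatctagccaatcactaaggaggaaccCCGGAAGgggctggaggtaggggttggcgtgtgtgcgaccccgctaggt
Mrps18a: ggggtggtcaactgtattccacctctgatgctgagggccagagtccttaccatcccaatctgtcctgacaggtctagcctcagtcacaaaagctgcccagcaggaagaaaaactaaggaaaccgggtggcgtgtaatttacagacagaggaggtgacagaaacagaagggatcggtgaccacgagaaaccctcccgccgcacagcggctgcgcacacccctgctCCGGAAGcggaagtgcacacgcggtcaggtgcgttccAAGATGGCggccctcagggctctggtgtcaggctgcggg
Mrpl47: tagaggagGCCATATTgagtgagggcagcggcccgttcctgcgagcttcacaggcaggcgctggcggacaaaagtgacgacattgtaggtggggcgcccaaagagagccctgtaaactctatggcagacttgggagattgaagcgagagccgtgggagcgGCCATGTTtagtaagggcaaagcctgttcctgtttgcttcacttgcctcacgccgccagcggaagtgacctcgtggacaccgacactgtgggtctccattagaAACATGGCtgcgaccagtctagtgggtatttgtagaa

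The genes that rose and had an entry follow, with Mrps30 at chr13:118387203-118387502 on the minus strand and Mrpl3 at chr9:105053018-105053317 on the plus strand.
Mrps30: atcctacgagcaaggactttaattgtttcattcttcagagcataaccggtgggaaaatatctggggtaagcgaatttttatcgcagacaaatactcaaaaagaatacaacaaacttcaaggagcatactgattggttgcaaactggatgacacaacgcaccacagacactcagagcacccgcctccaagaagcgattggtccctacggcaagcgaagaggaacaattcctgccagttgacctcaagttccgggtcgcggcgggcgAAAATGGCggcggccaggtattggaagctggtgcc
Mrpl3: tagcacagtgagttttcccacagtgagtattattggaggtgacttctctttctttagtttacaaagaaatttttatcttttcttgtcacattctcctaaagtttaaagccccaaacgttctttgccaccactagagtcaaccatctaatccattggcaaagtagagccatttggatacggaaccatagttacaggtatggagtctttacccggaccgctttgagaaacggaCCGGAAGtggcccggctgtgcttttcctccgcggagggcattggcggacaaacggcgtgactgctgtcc

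An ETS core starts 26 bases before the start of Mrps18a and 19 bases before that of Mrpl3, and another begins at base 2 of the Mrps12 transcript. A YY1 core begins at base 12 in Mrps18a, base 16 in Mrps30 and base 14 in Mrpl47, just inside the transcript. Further YY1 cores lie upstream in Mrps12 and Mrpl47, and none of these 5 windows holds the NRF1 palindrome. The ETS and the YY1 core thus each occur both in a gene that fell and in a gene that rose. Over the 68 windows of members, the ETS core was found in 24 (35.3%), the YY1 core in 20 (29.4%) and the NRF1 palindrome in 13 (19.1%), against 19.6%, 9.29% and 11.1% of the 8916 windows of genes tested and 11.4%, 6.53% and 6.28% of all 18558 windows matched. The other motifs were not more frequent among members than among genes tested: CCAAT was in 39.7% against 39.4%, and GGGCGG in 34 of the 68 windows against 65.9%. The median log2 fold change was -0.10 over members with the ETS core and 0.00 over those without it, -0.03 and -0.05 for the YY1 core, and 0.02 and -0.06 for the NRF1 palindrome. A match of letters is a description and says nothing of binding.

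Among the other proteins of the small subunit, most measured levels lay close together in the groups. Mrps5 and Mrps24, the counterparts of bacterial proteins at the entry of the messenger RNA channel, had log2 fold changes of -0.05 (95% interval -0.23 to 0.14) and 0.03 (-0.59 to 0.64). Mrps7, Mrps9, Mrps10 and Mrps14, from the head of the subunit, had values of 0.07, -0.25, -0.09 and 0.04, and without control replicate 1 Mrps7 and Mrps14 were higher (0.36 and 0.21, edgeR adjusted p = 0.0023 and 0.0411). Mrps2 had 57.1, 54 and 56.4 CPM in control and 66.4, 60.6 and 65.5 CPM in the knockdown libraries, which do not overlap, but did not pass (log2 fold change 0.21, edgeR adjusted p = 0.125), while it did without control replicate 1 (0.22, edgeR adjusted p = 0.026). Mrps27, a protein with helical repeats of the kind that bind RNA, was similar, with 53.8, 53.2 and 56.4 CPM against 61.9, 58.7 and 61.2 CPM (0.17, edgeR adjusted p = 0.203). Mrps36 had the lowest FPKM of all members and is now known as a part of the oxoglutarate dehydrogenase complex. It had 3.18, 3.29 and 3.88 CPM in control and 4.2, 2.99 and 3.42 CPM in knockdown replicates, with overlapping groups and a value of 0.04 (95% interval -0.48 to 0.57).

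The Mrps18 family had fitted values below 0 throughout, and only Mrps18a passed with all libraries. Mammals carry 3 paralogs of the bacterial protein, of which Mrps18b and Mrps18c act in the small subunit and Mrps18a in the large. Mrps18b had 48.4, 62.4 and 64.3 CPM in control and 48.3, 45.6 and 46.9 CPM in the knockdown libraries. Control replicate 1 was near the knockdown libraries here, below the other controls, so that the value was -0.30 (edgeR adjusted p = 0.148) with all libraries and -0.43 (edgeR adjusted p = 0.00121) without it. Mrps18c had 21.6, 11.3 and 10.4 CPM in control and 8.86, 10.3 and 12.4 CPM in knockdown replicates, and its value of -0.43 (edgeR adjusted p = 0.352) was -0.04 without control replicate 1. In the annotation, 30.5% of the exonic sequence of Mrps18b overlaps Gm16279 on the opposite strand. For Mrps18c, 23.2% overlaps Gm43511 on its own strand. These gene models had 0 to 4 counts per library, against 578 to 1044 for Mrps18b and 135 to 258 for Mrps18c. How reads on shared sequence were assigned is not given, and the part of the overlap was not tested. The difference between the paralogs was not tested.

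In the large subunit, genes of proteins near the peptidyl transferase centre and the upper tunnel had fitted values of both signs. Of those named here, only Mrpl3 passed with all libraries. Mrpl4 had 26.6, 23.1 and 22.7 CPM in control and 20, 15.6 and 16 CPM in knockdown replicates (log2 fold change -0.48, edgeR adjusted p = 0.0532, and -0.41 with 0.0271 without control replicate 1). Mrpl2, Mrpl16 and Mrpl27 had values of 0.22, 0.15 and -0.14 (edgeR adjusted p = 0.392, 0.307 and 0.676). Of the stalks that bind translation factors and move tRNA, Mrpl12, also described as a partner of the mitochondrial RNA polymerase, had 151, 126 and 136 CPM in control and 138, 135 and 142 CPM in knockdown replicates, and its value was 0.02 (95% interval -0.20 to 0.24), -0.04 under upper-quartile scaling and -0.03 without control replicate 2. Mrpl10 and Mrpl11, with which it forms the stalk and its base, had -0.10 and -0.07. Control replicate 1 set the sign of Mrpl11, with 56.7 CPM against 26 and 27.7 CPM in the other controls, and without it Mrpl11 was higher (0.37, edgeR adjusted p = 0.00554). Mrpl1, from the other stalk, had 31.2, 24.5 and 26.6 CPM against 16.3, 20.5 and 20.4 CPM with no overlap, and did not pass with all libraries (-0.51, edgeR adjusted p = 0.0526) but was lower without control replicate 1 (-0.42, edgeR adjusted p = 0.0257).

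At the exit of the tunnel, where Mrpl47 fell, the neighbours Mrpl22, Mrpl23, Mrpl24 and Mrpl17 had log2 fold changes of -0.05, -0.15, -0.35 and 0.33, none of which passed. Mrpl45, which holds the mitoribosome at the inner membrane, had 102, 80.2 and 82.5 CPM in control and 108, 106 and 108 CPM in knockdown replicates. Its groups did not overlap, yet control replicate 1 lay close to the knockdown libraries (log2 fold change 0.30, edgeR adjusted p = 0.105, and 0.41 with edgeR adjusted p = 0.000488 without that library). Members listed here as without a bacterial counterpart had 1 rise, Mrps30, and 0 falls among 28, with a median of 0.00. That list includes Mrps36, described above as a part of another complex. Members listed with a bacterial counterpart had 2 rises and 3 falls among 48, with a median of -0.05. These shares, 3.57% and 10.4%, were 35.7% and 39.6% without control replicate 1, and their difference was not tested. Mrpl57, in neither list, had 3.15 to 6.79 CPM and a value of -0.01.

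Mrpl51 and Mrpl15 had the third largest fitted fall and rise without a call. Mrpl51 had 158, 87 and 82.2 CPM in control and 71.8, 61 and 59.4 CPM in the knockdown libraries (log2 fold change -0.75 with an SE of 0.255, edgeR adjusted p = 0.0823). Its groups were apart, but control replicate 1 set the spread, and without it the value was -0.39 (edgeR adjusted p = 0.00843). Mrpl15, a counterpart of a bacterial protein of the large subunit, had 64.9, 50.4 and 47 CPM in control and 80.3, 73.3 and 63.6 CPM in knockdown replicates, with overlap (0.43, edgeR adjusted p = 0.0867, and 0.58 with edgeR adjusted p = 0.00307 without control replicate 1).

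Levels per length were compared with the deposited FPKM values (fragments scaled to gene length and library size). In control libraries the mean level of members ran from 1.31 to 73.9 FPKM, a range of 56.6-fold, with a median of 12.7 FPKM. Mrpl12 was highest at 73.9 ± 6.81 FPKM, followed by Mrpl42 at 69.5 ± 27.2, Mrpl50 at 48.9 ± 3.27 and Mrpl16 at 48.2 ± 3.2 FPKM (SD, n = 3). The spread of Mrpl42 came from control replicate 1, and these neighbours in the order do not differ beyond their spread except Mrpl12 from Mrpl50 and Mrpl16. Mrps36 at 1.31 ± 0.141 and Mrpl48 at 2.21 ± 0.394 FPKM were lowest. This order rests on the gene lengths behind the deposited FPKM. The lengths implied by count and FPKM differ from the exonic lengths in GENCODE M21. They are 668 against 3682 bases for Mrpl42, 1863 against 1532 for Mrpl12 and 2642 against 1274 for Mrps36. The order under other lengths was not tested. In knockdown libraries Mrpl12 and Mrpl42 again led, at 74.3 ± 2.05 and 62.1 ± 2.35 FPKM, and Mrps36 was at 1.34 ± 0.233 FPKM. Across the 77 genes, log2 mean FPKM in control and knockdown cells correlated at Pearson's r = 0.972 (Spearman's rho = 0.972), a description in which the points share libraries and gene lengths and are not independent replicates.

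**Figure D3:**
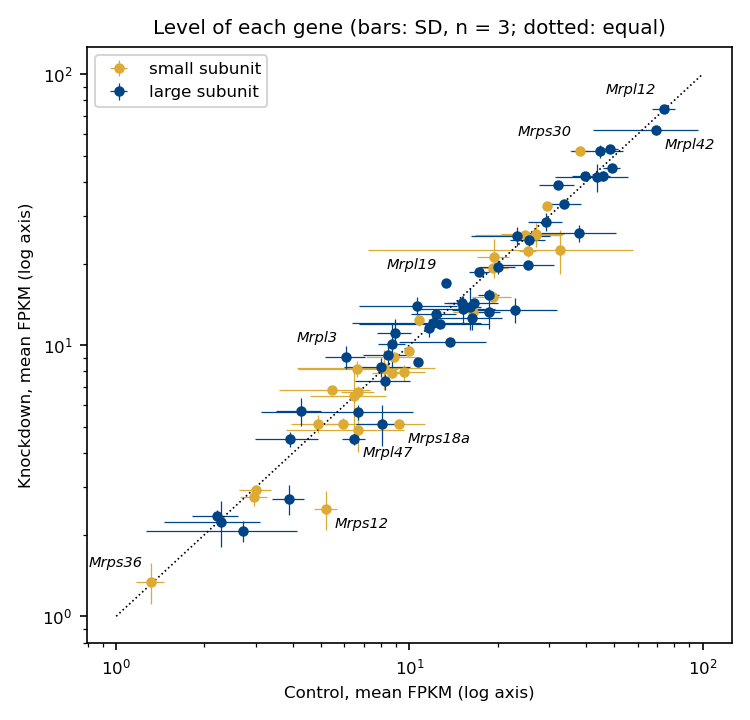
Mean FPKM in control (horizontal axis) and knockdown cells (vertical axis), both on log axes, for the 29 small and 48 large subunit names, with SD bars over 3 libraries and a dotted line of equal level. The genes follow the line from Mrps36 at 1.31 to Mrpl12 at 73.9 FPKM in control cells, and Mrps12 and Mrps18a lie below it.

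Control replicate 1 carried more of nearly all mitoribosomal transcripts than the other controls. It was the highest of the controls at 65 of the 77 members (84.4%) and the lowest at 7 (9.09%), where over 11936 genes tested the shares were 45.2% and 43.9%. Relative to the mean of control replicates 2 and 3 its level was higher by a median of 0.34 on the log2 scale, against 0.01 over all genes, with a range from -0.40 at Mrps18b to 1.77 at Mrps21. At least 2-fold excess was found at Mrps21, Mrpl33 (1.21), Mrpl41 (1.16), Mrps33 (1.10), Mrpl11 (1.06) and Mrpl18 (1.05). With that library left out, Mrpl18 and Mrps33 were higher in knockdown cells (0.47 and 0.49, edgeR adjusted p = 0.0129 and 0.0427), against 0.04 and 0.03 with it. The knockdown libraries lay between, by a median of 0.09 above control replicates 2 and 3. The mitochondrially encoded share, 10.5% in this library, had the same order of groups, and its part in the result was not tested. The excess correlated with log2 length, as implied by counts and FPKM, at Pearson's r = -0.0967 over 77 members and -0.212 over 11936 genes, a description across genes of the same libraries. The median implied length was 2729 bases over the members and 5317 bases over all genes tested. Implied lengths are not transcript lengths for every gene. That of Mrps12, 2446 bases, exceeds the span of the whole gene, whose exonic length in GENCODE M21 is 1040 bases. The part of length in the excess was not tested.

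**Figure D4:**
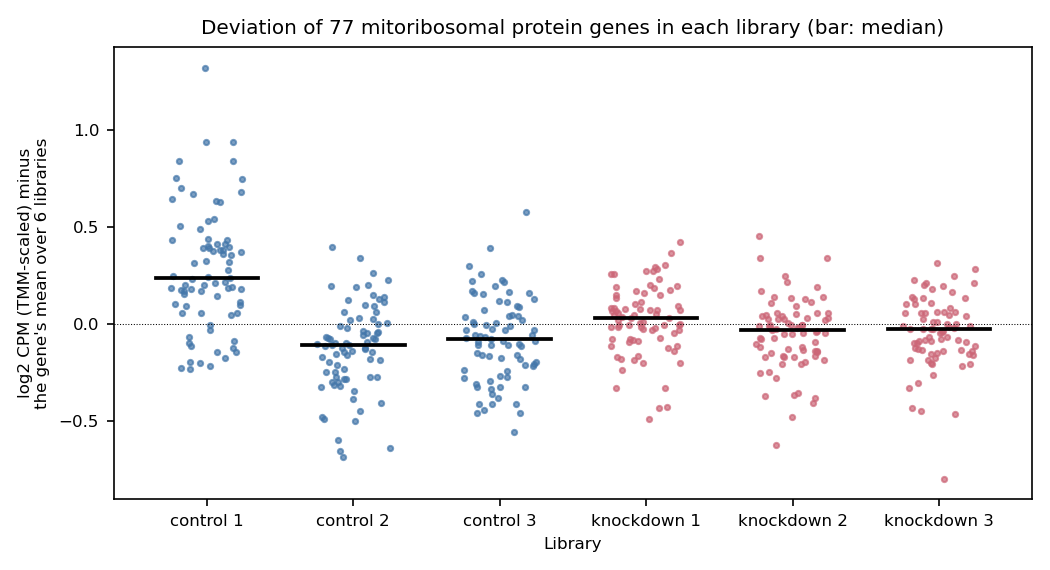
Deviation of each of the 77 genes from its own mean over the 6 libraries (vertical axis, log2 TMM-scaled CPM), with 1 point per gene, libraries on the horizontal axis and a bar at the median. The median bar of control replicate 1 stands highest, those of control replicates 2 and 3 lie below 0, and those of the knockdown libraries lie between them and close to 0.

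Without control replicate 1 the median of the members was 0.09, against 0.01 over all genes, and the members called there, but not with all libraries, included Mrpl45 and Mrps18b, described above. With all libraries, Mrps35, Mrps25, Mrpl20 and Mrps7 had 0.34, 0.31, 0.41 and 0.07 and did not pass (edgeR adjusted p = 0.311, 0.397, 0.269 and 0.84). In the fit without control replicate 1, Mrps35 rose by 0.65 (edgeR adjusted p = 0.000203), Mrps25 by 0.65 (0.000487), Mrpl20 by 0.73 (0.00181) and Mrps7 by 0.36 (0.0023) on the log2 scale. Mrps35 had 73.7, 41.1 and 43.9 CPM in control and 67, 65.8 and 66 CPM in the knockdown libraries, so that control replicate 1 lay above the knockdown libraries and the other controls below them. Mrps25 is uncertain, since 69.8% of its exonic sequence overlaps Nr2c2 on the opposite strand (log2 fold change 0.40, edgeR adjusted p = 0.0739, and 0.28 with 0.0105 in that fit). In all, 32 members share some exonic sequence with another gene, and 18 share over 10%, among them Mrpl53, with 88% on its own strand, and Mrps34.

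Genes around the mitoribosome were examined as lists. Of 6 further mitoribosomal proteins with other names, 0 passed, among them Ptcd3 (log2 fold change -0.20, edgeR adjusted p = 0.154) and Dap3 (-0.04, edgeR adjusted p = 0.886), with 1 at an unadjusted p under 0.05. In the fit without control replicate 1, 2 of the 6 were higher, Ict1 (0.64, edgeR adjusted p = 0.000652) and Chchd1 (0.70, edgeR adjusted p = 0.000485). With all libraries, Ict1 and Chchd1 had 0.43 and 0.14 (edgeR adjusted p = 0.128 and 0.807). Of 26 tested genes of assembly and ribosomal RNA modification, 2 were higher and 2 lower, with a median of 0.00. Mpv17l2, a membrane protein needed for assembly, fell from 22.2 ± 3.48 to 13.8 ± 1.91 TMM-scaled CPM (-0.68, edgeR adjusted p = 0.0316), and Fastkd2, which binds the large ribosomal RNA, fell by 0.38 (edgeR adjusted p = 0.0399). Tfb1m, the methyltransferase of the small ribosomal RNA, rose by 0.77 from 3.65 ± 0.45 to 6.21 ± 1.07 TMM-scaled CPM (edgeR adjusted p = 0.0443). Mettl15, another methyltransferase, rose by 1.23 (edgeR adjusted p = 0.0499) at levels of 0.548 to 2.26 CPM. Of 15 translation factors and messenger RNA handling genes, 0 passed and 4 had an unadjusted p under 0.05. The most abundant were Lrpprc (-0.33, edgeR adjusted p = 0.236, but -0.52 with 0.000353 without control replicate 1) and Tufm, the elongation factor, with -0.39 (edgeR adjusted p = 0.127).

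Of 17 mitochondrial tRNA synthetases, 1 passed, Aars2, which fell by 0.65 (edgeR adjusted p = 0.0332). Of 16 genes of mitochondrial transcription and RNA processing, 2 passed, and both fell. Trmt10c, a subunit of mitochondrial ribonuclease P, fell from 45.1 ± 8.7 to 27.9 ± 1.44 TMM-scaled CPM (-0.69, edgeR adjusted p = 0.0239). Pnpt1, the polynucleotide phosphorylase, fell by 0.41 (edgeR adjusted p = 0.0214). Of 12 nuclear regulators, 1 passed, the coactivator gene Ppargc1a, with 15.7 ± 1.78 against 7.91 ± 1.01 TMM-scaled CPM (-0.99, SE 0.157, edgeR adjusted p = 0.00903). Nrf1, Gabpa and Yy1, whose motifs were searched above, had 0.45, -0.14 and 0.18 and did not pass (edgeR adjusted p = 0.0634, 0.581 and 0.238). With control replicate 1 left out, Nrf1 was higher (0.32, edgeR adjusted p = 0.00979), Gabpa was lower (-0.30, edgeR adjusted p = 0.00398) and Yy1 did not pass (0.21, edgeR adjusted p = 0.0576). Of the 13 mitochondrially encoded protein genes, the messages that mitoribosomes translate, 0 passed (0 at an unadjusted p under 0.05), with a median of 0.30. The most abundant, mt-Co1 and mt-Atp6, had 0.39 and -0.16 (edgeR adjusted p = 0.715 and 0.768), against 1.72 and 0.31, both higher, in the fit without control replicate 1. Without control replicate 1, 12 of these 13 were higher and the median was 1.52, while in that fit the counts of higher and lower genes were 6 and 5 for assembly, 1 and 4 for translation factors, 1 and 5 for synthetases, 2 and 4 for transcription and 2 and 5 for regulators. The counts of calls are to be read against 20.6% and 52.1% of all genes in the respective fits. Those at an unadjusted p under 0.05 are to be read against 4296 of the 11975 genes tested.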

How the data were processed

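Messenger RNA of 6 Hepa1-6 samples, 3 control and 3 knockdown, was measured by sequencing. The authors deposited whole-number read counts per gene without normalization, and FPKM values for the same genes, per the file headers. Per the submitters' processing notes the tools were featureCounts 1.5.0-p3 and HISAT2 2.0.5, with mm10 as the build, no roles being stated. No source used here gives the annotation, strand setting or filters, so reads of genes that overlap on opposite strands may be mixed. The gene lengths implied by count and FPKM agreed over libraries within 0.0217% for each member, but differed from GENCODE M21 exonic lengths for members such as Mrpl42.

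Counts were analysed on the whole table with edgeR 4.0.16 in R 4.3.3: filterByExpr on the groups (minimum count 10), TMM scaling, the quasi-likelihood test with the group as its only term, and Benjamini-Hochberg adjustment over 11975 genes at a threshold of 0.05. An SE is the size of a fold change divided by the square root of F, and intervals of 95% use the test's degrees of freedom. The procedure was tested on simulated data. Because the labels do not tie replicates to separate cultures, p-values and intervals measure the spread among these samples alone, possibly technical, and a two-sided exact permutation test of 1 gene at 3 against 3 could not go below 0.1. A count of 0 allows up to 3 counts, or 0.185 to 0.251 CPM, for counting error only.

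The rule for named genes took every called member, the members with the highest and lowest FPKM, the largest fitted changes, the Mrps18 family and up to 4 called members of each related list (the 2 most abundant where none passed). Further members are named for their role in the mitoribosome or because they passed without control replicate 1, and were chosen after values were seen. Members, lists and roles were chosen with earlier results of these data known. All 77 members matched GENCODE M21 by identifier, 58 with the same start and end, from which strand and overlap come. Mitochondrial ribosomal RNAs were not analysed here. Alternatives were RLE and upper-quartile scaling, leaving out mitochondrially encoded genes, filters of 1 count in all or 1 CPM in every library, DESeq2 1.42.0, limma 3.58.1 with voom, a replicate block and each library left out.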

Additional observations from a re-analysis of the deposited data

How the results depend on the processing

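The median of the members, -0.03, lay between -0.09 and 0.09 under the alternatives run, the 0.09 coming without control replicate 1. The SD between libraries of the median deviation was 0.137. It includes control replicate 1, whose median stood highest, so it cannot serve to judge how far that library moved the median. With all libraries, the 3 higher and 3 lower members were the same under RLE scaling, without mitochondrially encoded genes, under both filters and with limma-voom. Lower members numbered 6 under upper-quartile scaling, where 2 were higher, and 8 with DESeq2, where 4 were higher, with 21.6% and 27.1% of all genes called. With libraries left out in turn, higher members numbered 0 to 19 and lower members 0 to 10, the highest counts coming without control replicate 1, and 534 to 6313 of all genes were called. With the replicate block, 0 were higher and 2 lower, against 8.24% of all genes, but same-numbered samples share only a number: their deviations from the group means correlated at -0.008, 0.00771 and 0.0527 for replicates 1, 2 and 3. Small values changed sign: Mrpl12 and Mrps36 were at -0.04 and -0.01 under upper-quartile scaling, and with libraries left out Mrpl12 ranged from -0.03 to 0.09, Mrps36 from -0.09 to 0.15, Mrpl48 from -0.02 to 0.23 and Mrpl42 from -0.31 to 0.21. The causes were not tested. Zfp207 passed under every alternative, from -2.11 to -1.82.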

Other observations

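Many mitoribosomal genes start back to back with another gene. In GENCODE M21, 37 of the 77 members have a gene on the opposite strand whose 5′ end lies within 1000 bases of their own, and 31 of these partners could be tested, counting the pair of Mrpl46 and Mrps11 from both sides. Of the 31 partners, 2 were higher and 2 lower, against 20.6% of all genes called in either direction. Only 2 pairs had a called member with a tested partner (Mrps12 with Sars2 and Mrpl47 with Ndufb5), and in these the partner did not pass with all libraries. Hira, which encodes a histone chaperone and starts 175 bases from Mrpl40, had 43.7, 41.9 and 35.8 CPM in control and 76.7, 77.3 and 72.6 CPM in knockdown replicates 1 to 3 (log2 fold change 0.92, edgeR adjusted p = 0.00417), while Mrpl40 had -0.35 and did not pass. Apba3, an adaptor protein gene 26 bases from Mrpl54, fell by 1.05 (edgeR adjusted p = 0.00816), against -0.20 at Mrpl54. Klc4, a kinesin light chain gene next to Mrpl2, fell by 0.60, against 0.22 at Mrpl2, and Eme2 rose by 0.76 beside Mrps34 at 0.02. Sars2, the mitochondrial seryl-tRNA synthetase gene 172 bases from Mrps12, had 6.7, 8.36 and 8.49 CPM in control and 6.69, 4.44 and 3.96 CPM in knockdown replicates. Its value of -0.63 did not pass with all libraries (edgeR adjusted p = 0.108), next to -1.05 at Mrps12. Without control replicate 1, Sars2 was lower (-0.73, edgeR adjusted p = 0.0272), next to -1.01 at Mrps12. These genes were named after their values were seen, and whether pairs move together was not tested.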
